A study of Mus musculus with 6 samples.

Results

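The 10 genes studied here encode transporters that bring amino acids into activated T cells: Slc7a5, Slc3a2, Slc7a1, Slc7a6, Slc7a11, Slc1a4, Slc1a5, Slc38a1, Slc38a2 and Slc43a1. Their RNA was followed through 6 RNA-seq libraries. They were chosen by name, as carriers known in activated T cells, with earlier results of these data known. They are 10 of the 49671 genes in the count tables. Each was found under 1 gene identifier, and 10 of 10 passed the filter on low counts that left 13996 genes for testing. The libraries came from splenocyte cultures labelled as naive primary CD8 T cells of OT-I genotype, in which nearly every CD8 T cell carries the same transgenic receptor. All groups were stimulated with SIINFEKL, the ovalbumin peptide this receptor recognises, presented by antigen-presenting cells, and RNA was taken after 48 h. The groups were BiTS, a bispecific T cell silencer that brings the inhibitory receptor LAG-3 close to the T cell receptor, BiTS(mut), whose alteration the labels do not describe, and an isotype control, with 2 libraries each. Nothing in the labels says whether the 2 libraries of a group came from separate mice or cultures, and each p-value therefore reflects the spread among the 6 libraries alone, which may be technical. The labels give no age for the mice.

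T cells that leave rest for division take up far more amino acid than before, because they build protein and nucleotides quickly and because amino acid supply is read by the growth kinase complex mTORC1. The main leucine carrier, LAT1, is a pair of proteins, the light chain Slc7a5 that moves the amino acid and the heavy chain Slc3a2 (CD98) that carries it to the cell surface. It imports large neutral amino acids in exchange for glutamine, which is itself brought in by sodium-coupled carriers such as Slc1a5, Slc38a1 and Slc38a2. Several of these genes are known targets of the transcription factors MYC, which T cell receptor signals induce, and ATF4, which is made when amino acids run short.

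The libraries held between 10813123 and 15239077 gene counts, and 3 reads, the most that a reading of 0 leaves possible, equalled 0.277 CPM or less (CPM is the count scaled to a common library total). By title number they formed a second set (numbers 4 to 6, holding BiTS replicate 2, BiTS(mut) replicate 2 and isotype replicate 4) and a first set (numbers 1 to 3, holding replicate 1 of each group), which the first principal component separated with 65.4% of the variance. The labels do not say what the numbers mark. CD8 T cell markers were all tested (10 of 10) and together held 2548 to 2762 CPM in the second set and 2041 to 2467 CPM in the first. Dendritic cell markers (19 of 19 tested, none at 0) held 1658 to 1856 CPM in the second set and 2732 to 3323 CPM in the first. Of the macrophage and monocyte markers 4 of 12 passed the filter and held 34.3 to 39.95 CPM in the second set and 49.3 to 52.2 CPM in the first, and the defining markers Adgre1, Fcgr1 and C1qa did not pass it. The B cell markers that passed (2 of 7) held 3.78 to 5.27 CPM, those of NK cells (2 of 5) 89.0 to 123 CPM, and those of neutrophils and erythroid cells 0 of 5 and 0 of 4. The values below are therefore those of mixed cultures, in which fewer cells of a type and less RNA per cell cannot be told apart.

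Compared per exon length, in TPM (reads per base of exon, scaled to a common total), the glutamine and neutral amino acid carrier Slc1a5 (ASCT2) was the most abundant of the 10, at 492 TPM (SD 66.7, range 424 to 576 over the 6 libraries). The LAT1 light chain Slc7a5 followed at 223 TPM (SD 26.0) and its heavy chain Slc3a2 at 207 TPM (SD 56.9). The ranges of these neighbours overlapped, and Slc7a5 was above Slc3a2 in 3 of 6 libraries. Slc38a2 (SNAT2), a sodium-coupled carrier of small neutral amino acids, came next at 146 TPM (SD 43.3) and was below Slc3a2 in 6 of 6 libraries, though their ranges overlapped. A clear step separated these from Slc7a6 (38.2 TPM, SD 3.49), which exchanges cationic for neutral amino acids as a partner of Slc3a2, from Slc38a1 (SNAT1, 35.3 TPM, SD 5.23), a close relative of Slc38a2, and from the arginine and lysine carrier Slc7a1 (29.2 TPM, SD 6.87). Slc1a4 (ASCT1), a carrier of alanine, serine and cysteine, stood at 18.0 TPM (SD 4.25). The cystine and glutamate exchanger Slc7a11 (xCT, 3.33 TPM, SD 2.02) and the leucine carrier Slc43a1 (LAT3, 2.02 TPM, SD 0.646) were the lowest and overlapped, with Slc7a11 above in 3 of 6 libraries. Slc43a1 rested on 33 to 87 reads per library.

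The 4 highest genes held most of the summed level, which ran from 1099 TPM (isotype replicate 4) to 1319 TPM (BiTS replicate 1). The share of Slc1a5 was 47.6% to 49.6% of this sum in the second set and 32.6% to 37.8% in the first. The share of Slc3a2 was 13.7% to 14.1% in the second set and 18.9% to 21.3% in the first.

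**Figure D1:**
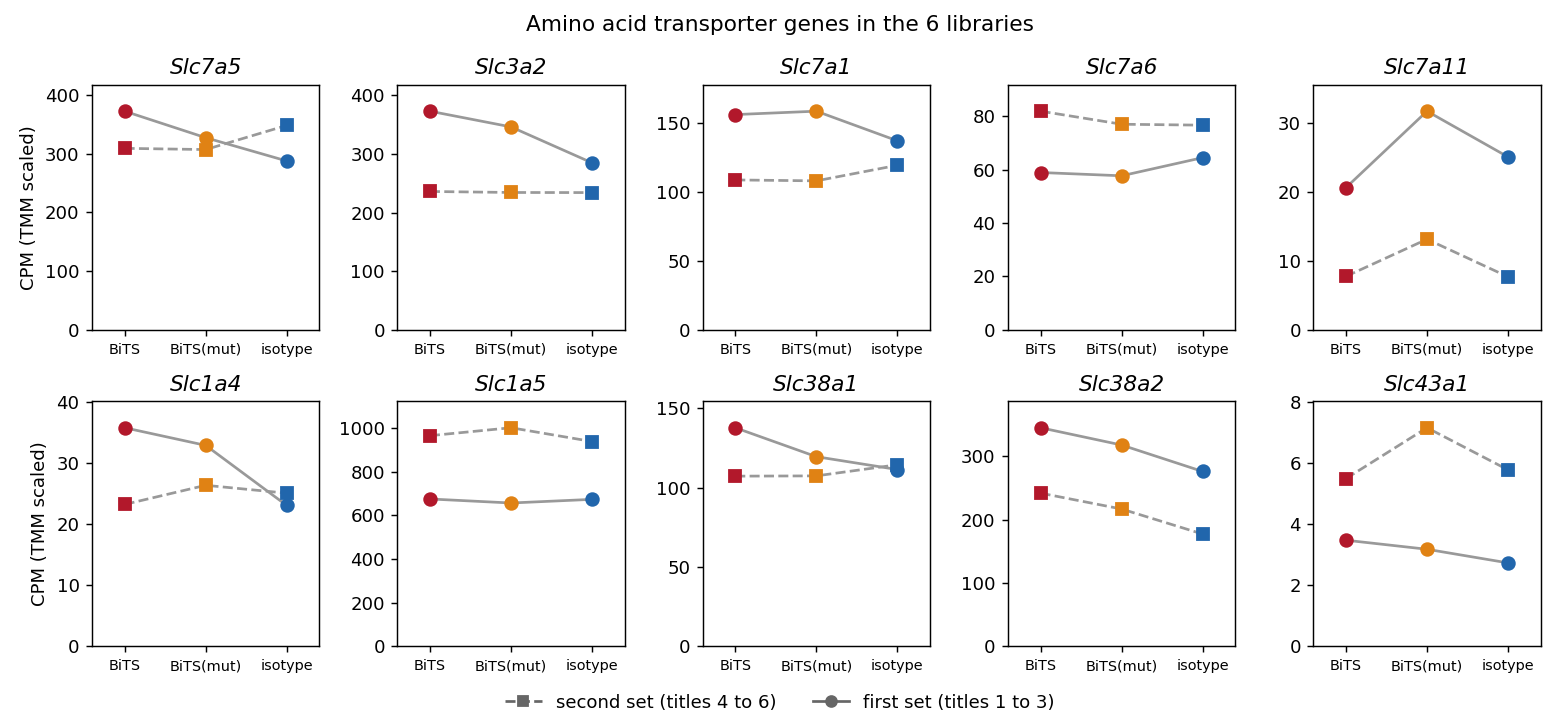
Level of each transporter gene in each library, in CPM after TMM scaling, by treatment; squares with dashed lines are the second set and circles with solid lines the first. The sets lie apart for 7 genes, while for Slc38a2 both lines fall from BiTS through BiTS(mut) to isotype and for Slc7a11 both peak in BiTS(mut).

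The comparison of BiTS with isotype asks what the silencer does to the cultures' transcriptome. Among the transporters, Slc38a2 rose 1.30-fold within sets, and for the other 9 no difference passed the test. The reading depends on how the sets are treated. Without a term for the set, 0 of the 10 members and 0% of all genes were called by edgeR (quasi-likelihood test, adjusted p under 0.05). At an unadjusted p below that level stood 0 members and 176 genes, and neither DESeq2 nor limma-voom made a call. With the set as a block, 1 of 10 members was called higher and 0 lower, against 3.4% of all tested genes (1.81% higher and 1.59% lower). The median log2 fold change of the 10 was 0.11 in this fit, beside -0.005 over all genes tested.

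Slc38a2 stood at 345 and 242 CPM in BiTS replicates 1 and 2 and at 276 and 177 CPM in isotype replicates 1 and 4. In each set the BiTS library was the higher one, by 0.32 (first) and 0.45 (second) on the log2 scale, although the groups overlapped when the sets were pooled. The fitted log2 fold change was 0.38 ± 0.08 (SE) with the block (edgeR, Benjamini-Hochberg adjusted p = 0.00298). It was 0.37 ± 0.31 without the block, where it was not called. With the block it was 0.34 ± 0.12 without BiTS replicate 2, where the call was lost (edgeR adjusted p = 0.184). It was also lost with the block and spike-in scaling (0.45 ± 0.43). SNAT2 is known for being induced when cells lack amino acids, and its transport is regulated by the supply of its own substrates. Cell type markers moved in the same comparison: 8 of 19 dendritic cell markers fell and 0 rose with the block (median -0.35), 3 of 10 CD8 T cell markers rose and 0 fell (median 0.17), and their part in the difference of Slc38a2 was not tested.

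Slc3a2 had 373 and 236 CPM in BiTS replicates 1 and 2, against 285 and 234 CPM in isotype replicates 1 and 4. The whole difference thus lay in the first set (0.39 on the log2 scale, against 0.01 in the second). Slc1a4 had 35.8 and 23.2 CPM in BiTS and 23.1 and 25.1 CPM in isotype, higher by 0.63 in the first set and lower by 0.11 in the second (log2 difference -0.11). Neither passed with the block (log2 fold change 0.20 ± 0.09 for Slc3a2 and 0.29 ± 0.13 for Slc1a4, edgeR adjusted p = 0.235 and 0.304).

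Slc7a5 showed the same split, with 372 and 309 CPM in BiTS and 288 and 348 CPM in isotype, a log2 difference of 0.37 in the first set and -0.17 in the second. Its fitted value was 0.10 ± 0.09, with a 95% interval of -0.08 to 0.28 in the blocked fit. When isotype replicate 4 was left out of the blocked fit, Slc7a5 (0.33), Slc3a2 (0.37) and Slc1a4 (0.57) were called beside Slc38a2 (0.33). When isotype replicate 1 was left out, Slc7a5 was at -0.13 ± 0.08 and Slc1a4 at -0.02 ± 0.15. Whether BiTS acted differently in the 2 sets was not tested, since each set holds 1 library per group.

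Slc1a5 had 675 and 965 CPM in BiTS and 674 and 938 CPM in isotype. Set against isotype in its own set, each BiTS library differed by no more than 0.04 on the log2 scale, and the 95% interval of the blocked log2 fold change was -0.14 to 0.18. The remaining members, Slc7a1 (0.03 ± 0.09), Slc7a6 (-0.02 ± 0.09), Slc38a1 (0.11 ± 0.09), Slc7a11 (-0.18 ± 0.15) and Slc43a1 (0.12 ± 0.27), did not pass. For Slc43a1 the interval, -0.43 to 0.66, is wide, and a moderate change was not detectable at this depth.

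Comparing BiTS with BiTS(mut) asks which differences depend on what was altered in BiTS(mut). Here Slc7a11 was 1.60-fold lower in BiTS than in BiTS(mut) within sets, and the other 9 transporters did not pass. In the fit with no block edgeR called 0 members and 0% of all genes, with 0 members and 76 genes at an unadjusted p under 0.05. DESeq2 and limma-voom made no call there. With the block 1 of 10 members was called lower and 0 higher, against 0.972% of all tested genes (0.272% higher and 0.7% lower), and the median of the 10 was 0.03, beside 0.0005 over all genes.

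Slc7a11 stood at 20.7 and 7.77 CPM in BiTS replicates 1 and 2, at 31.8 and 13.2 CPM in BiTS(mut) replicates 1 and 2, and at 25.1 and 7.71 CPM in isotype replicates 1 and 4. BiTS(mut) held the highest library of each set, and BiTS was below it by 0.62 in the first set and 0.76 in the second (log2 differences -0.62 and -0.76). The fitted log2 fold change was -0.68 ± 0.15 (edgeR adjusted p = 0.0069) with the block and -0.66 ± 0.73 without it. The call was lost without BiTS replicate 1 (-0.64), BiTS(mut) replicate 1 (-0.85) or BiTS(mut) replicate 2 (-0.57), and in the blocked design with DESeq2 (-0.69, adjusted p = 0.146) or spike-in scaling (-0.52 ± 0.42). In the fit with no block its value was 0.12 without BiTS(mut) replicate 1. Against isotype, the same gene was at -0.18 ± 0.15 in BiTS and at 0.49 ± 0.14 in BiTS(mut), and neither passed (edgeR adjusted p = 0.638 and 0.561). The exchanger brings in cystine, from which cells make glutathione. Gclc, the catalytic subunit of the first enzyme of glutathione synthesis, was at a log2 fold change of -0.33 ± 0.09 in BiTS against BiTS(mut) (edgeR adjusted p = 0.041). It was the only 1 called of 15 tested genes of cystine and glutathione use and NRF2 targets, beside 0.972% of all genes. Of these 15, 4 were positive and 11 negative (median -0.04). The call of Gclc was lost when any 1 of the 4 libraries compared was left out. It was also lost with DESeq2, with the stricter filter on low counts and with spike-in scaling (-0.43 to -0.23 over the other blocked alternatives).

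Dendritic cell markers, like Slc7a11, were lower in the second set than in the first and lower in BiTS than in BiTS(mut). Their summed level was 2732 and 1658 CPM in BiTS replicates 1 and 2, against 3323 and 1856 CPM in BiTS(mut) replicates 1 and 2, and 7 of 19 were called lower and 0 higher with the block (median -0.27). Between BiTS(mut) and isotype, where Slc7a11 was at 0.49 ± 0.14 (not called), the marker median was -0.009 and 0 of 19 were called. Isotype replicates 1 and 4 held 3309 and 1766 CPM of these markers. The part of the markers in the difference of Slc7a11 was not tested.

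Slc38a2 lay between the other groups in BiTS(mut), with 318 and 217 CPM in replicates 1 and 2. Against BiTS(mut), BiTS was at 0.14 ± 0.08, and BiTS(mut) was at 0.25 ± 0.08 against isotype. Neither passed (edgeR adjusted p = 0.722 and 0.848). The 3 comparisons share libraries and are not independent of each other. The 95% interval of Slc7a5 between BiTS and BiTS(mut) was -0.08 to 0.29 and that of Slc1a5 -0.17 to 0.15.

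Comparing BiTS(mut) with isotype, for what the altered molecule still does, edgeR called 0 of 10 members with the block, against 0.05% of all genes, and 0 of 10 and 0% without it. At an unadjusted p under 0.05 these were 3 members with the block and 0 without, and 620 and 41 genes of all tested. DESeq2 and limma-voom called 0 members in either design. The 3 members were Slc7a11, Slc38a2 and Slc1a4 (0.29 ± 0.13). Slc1a4 had 32.9 and 26.4 CPM in BiTS(mut) and 23.1 and 25.1 CPM in isotype and was the only member whose BiTS(mut) and isotype libraries did not overlap, which held for 13.7% of all genes.

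**Figure D2:**
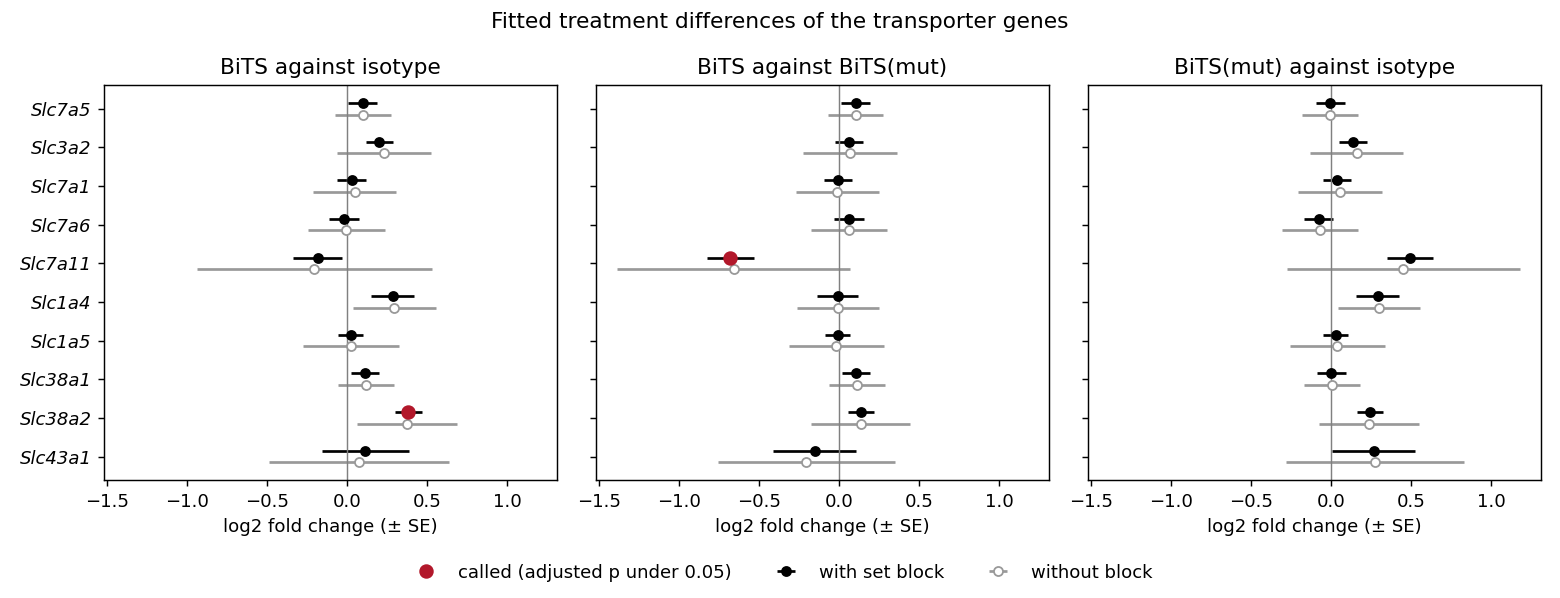
Fitted log2 fold changes of the 10 transporter genes (± SE) in the 3 treatment comparisons, with the set block (filled) and without it (open); red points were called at an adjusted p under 0.05. The red points are Slc38a2, at 0.38 in BiTS against isotype, and Slc7a11, at -0.68 in BiTS against BiTS(mut), and the open points have wider errors in every comparison.

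Most of these genes differed more between the sets than between treatments. In the blocked fit the log2 fold change between the sets was larger than any of the 3 treatment values for 8 of 10 members, the exceptions being Slc7a5 and Slc1a4. The same count was not made over all genes, so it does not set these members apart. With group kept in the model, edgeR called 8 of 10 members between the second and the first set, 3 higher and 5 lower, against 52.7% of all genes (25.9% higher and 26.9% lower). That background, in which most genes differed, is what the count of 8 stands beside. The labels do not say whether the libraries of a set are independent of each other. If they share a mouse, culture or batch, the p-values between sets reflect the spread within sets and not that between sets. With spike-in scaling 0 members were called higher and 6 lower, and over the other alternatives 3 were higher and 4 to 7 lower. The CPM of the sets did not overlap for 7 of the 10 (3 higher and 4 lower), and for 55.7% of all genes (27.9% higher and 27.8% lower).

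Slc7a11 was the most affected, at 7.77, 13.2 and 7.71 CPM in the second set (BiTS, BiTS(mut), isotype) and at 20.7, 31.8 and 25.1 CPM in the first. Its log2 fold change was -1.44 ± 0.12 (edgeR adjusted p = 5.94e-14), and every library of the second set was below every library of the first. Slc38a2 was lower in the second set by a log2 fold change of -0.57 ± 0.07, Slc3a2 of -0.50 ± 0.07, Slc7a1 of -0.43 ± 0.07 and Slc1a4 of -0.28 ± 0.11. The call of Slc1a4 (adjusted p = 0.0241) was lost with DESeq2 (-0.28) and without BiTS replicate 1 (-0.12), BiTS replicate 2 (-0.12), BiTS(mut) replicate 1 (-0.27) or BiTS(mut) replicate 2 (-0.26), while without isotype replicate 1 or 4 the difference was -0.47. Dendritic cell markers were lower in the second set for 17 of 19 and higher for 1, while CD8 T cell markers were higher for 6 of 10 and lower for 1 (median 0.27). Their part in these differences, upward or downward, was not tested.

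Slc1a5, by contrast, reached 965, 1001 and 938 CPM in the second set (BiTS, BiTS(mut), isotype) against 675, 657 and 674 CPM in the first. Its rise of 0.53 ± 0.07 was close to equal in the 3 groups (0.52, 0.61 and 0.48). Slc7a6 (0.38 ± 0.08) and the scarce Slc43a1 (0.97 ± 0.21) were also higher. These 3 increases are relative to all other genes. Scaled to spike-in transcripts, which shifted the median of all genes by -0.76, Slc1a5 was at -0.23 and Slc7a6 at -0.38, or 0.52 and 0.36 above that median, and Slc43a1 was at 0.20, with none of the 3 called. Slc7a5 (-0.03 ± 0.07, 95% interval -0.18 to 0.12) and Slc38a1 (-0.16 ± 0.07, adjusted p = 0.0613) did not pass. Without isotype replicate 1 or 4 both were called lower, Slc7a5 at -0.19 in each case and Slc38a1 at -0.27 and -0.26. Slc38a1 was also called lower with library totals alone (-0.21) and with spike-in scaling (-0.92). Their isotype libraries alone stood higher in the second set (by 0.28 and 0.04).

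**Figure D3:**
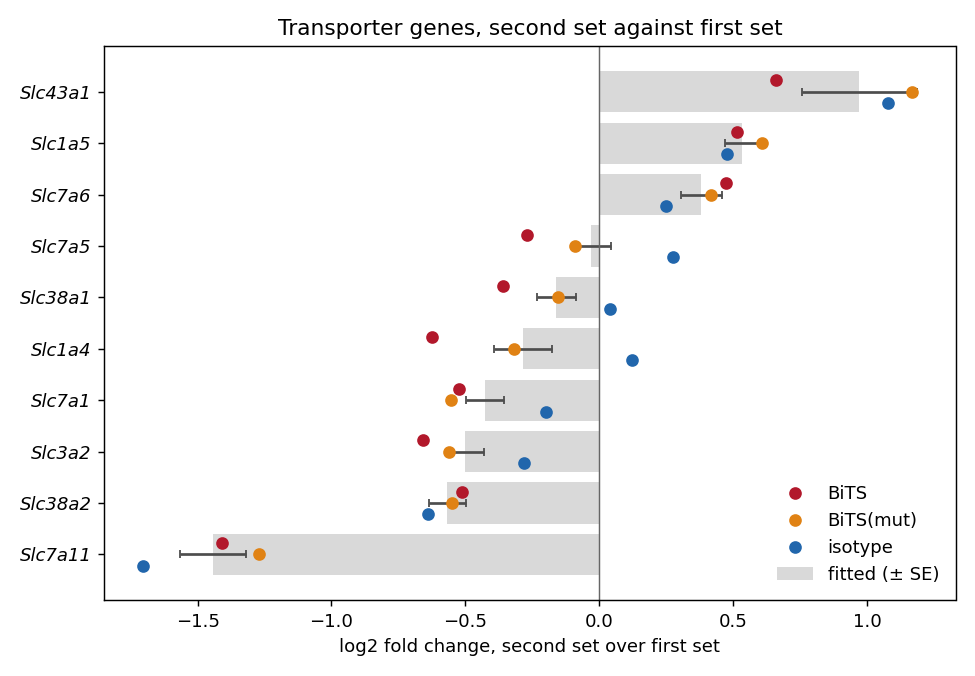
Log2 fold change of the second over the first set for each transporter gene: grey bars are fitted values (± SE) from the model with group and set, and points are the differences within BiTS, BiTS(mut) and isotype. Slc43a1, Slc1a5 and Slc7a6 lie to the right in all 3 groups, and Slc7a1, Slc3a2, Slc38a2 and Slc7a11 to the left.

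The proportions of the heavy chain and its partners differed between the sets in turn. The ratio of Slc7a5 to Slc3a2 in TPM was 1.25, 1.25 and 1.42 in the second set (BiTS, BiTS(mut), isotype) and 0.95, 0.90 and 0.96 in the first, without overlap. Slc7a5, Slc7a6 and Slc7a11, the light chain partners among the members, were also summed. Their TPM relative to that of Slc3a2 was 1.57 ± 0.09 in the second set and 1.10 ± 0.05 in the first (SD, n = 3 each). The two-sided exact permutation p was 0.1, the smallest that 3 against 3 libraries can give and the only value possible without overlap. Both ratios restate the levels given above, and their absolute size depends on the exon lengths used. The further partners Slc7a7, Slc7a8 and Slc7a10 added 2.19 to 3.07 TPM in the second set and 5.58 to 6.87 TPM in the first. Slc7a8 (LAT2), at 0.67, 0.64 and 1.38 TPM in the second set and 2.83, 3.99 and 4.84 TPM in the first, fell by 1.94 on the log2 scale.

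**Figure D4:**
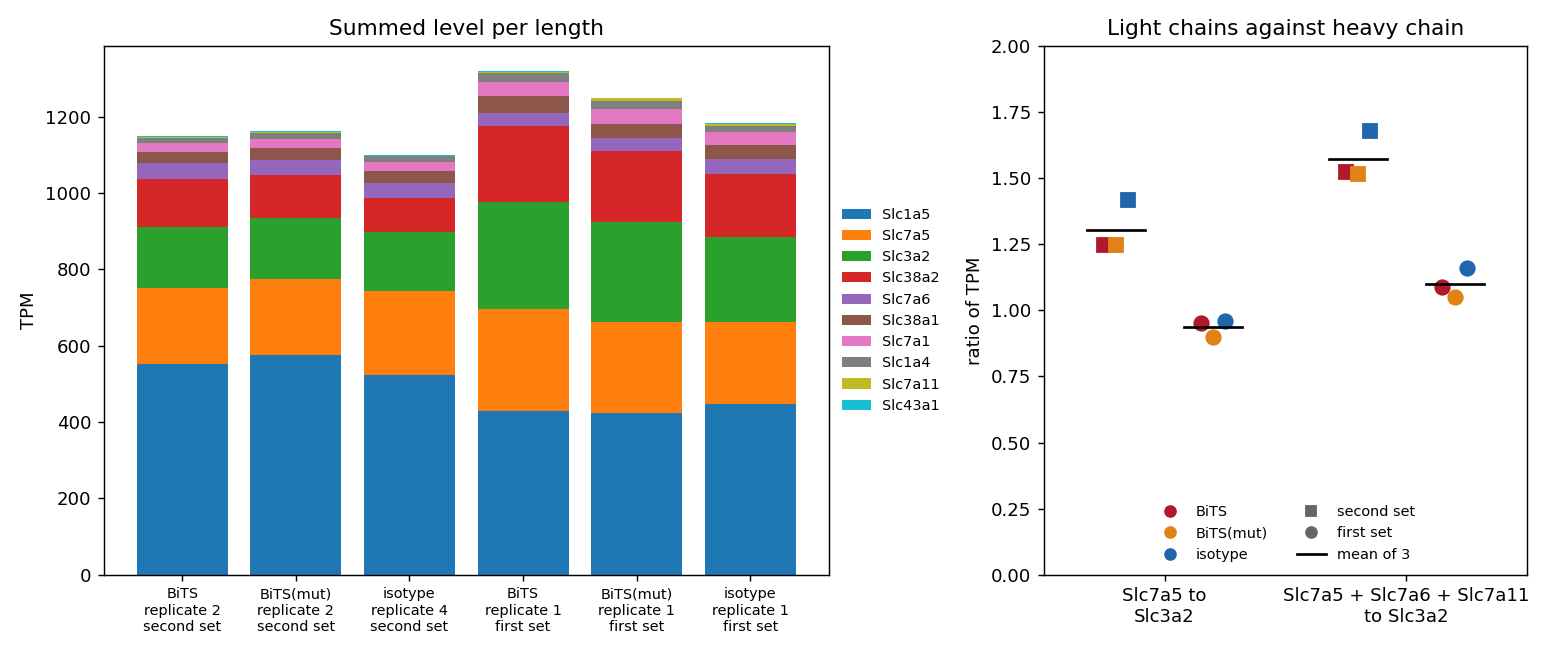
Left, TPM of the 10 transporter genes stacked for each library, second set first; right, ratio of light chain to heavy chain TPM per library with the mean of 3 libraries (black line). Slc1a5 makes a larger part of the stack in the second set (47.6% to 49.6%) than in the first (32.6% to 37.8%), and both ratios are higher there.

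Promoter sequence is shown for the 2 members called between treatments and for Slc1a4, the other member with a match to the ATF4 element. RefSeq windows (GRCm38.p6) from 250 bases before to 50 bases after the start of transcription were at hand for 7 of the 10 genes. They were searched on both strands for TGATGNAA, the core of the amino acid response element bound by ATF4, for the MYC E-box CACGTG and for the antioxidant response element TGACNNNGC bound by NRF2. In the windows below capitals mark every match.

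Slc7a11, chr3:50443564-50443863, minus strand: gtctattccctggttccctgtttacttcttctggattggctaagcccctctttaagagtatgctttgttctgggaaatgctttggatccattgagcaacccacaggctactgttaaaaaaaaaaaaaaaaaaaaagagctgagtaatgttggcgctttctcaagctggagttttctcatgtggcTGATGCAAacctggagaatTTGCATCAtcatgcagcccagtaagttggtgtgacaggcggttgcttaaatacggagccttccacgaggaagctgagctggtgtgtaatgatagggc

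Slc1a4, chr11:20332664-20332963, minus strand: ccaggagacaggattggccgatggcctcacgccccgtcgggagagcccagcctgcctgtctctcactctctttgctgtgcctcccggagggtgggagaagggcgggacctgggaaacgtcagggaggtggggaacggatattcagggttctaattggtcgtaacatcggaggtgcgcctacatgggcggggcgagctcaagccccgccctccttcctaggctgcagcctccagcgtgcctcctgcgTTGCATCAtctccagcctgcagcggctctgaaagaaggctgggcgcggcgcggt

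Slc38a2, chr15:96699679-96699978, minus strand: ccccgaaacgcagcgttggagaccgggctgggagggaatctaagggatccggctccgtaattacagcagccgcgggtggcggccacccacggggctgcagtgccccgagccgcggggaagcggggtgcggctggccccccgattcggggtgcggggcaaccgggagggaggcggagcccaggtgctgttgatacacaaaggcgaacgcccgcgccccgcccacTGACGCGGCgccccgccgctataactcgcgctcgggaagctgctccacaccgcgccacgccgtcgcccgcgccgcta

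The Slc7a11 window held 2 TGATGNAA matches, on opposite strands and facing each other, with their left ends 66 and 47 bases before the start site. Slc1a4 held 1, which spans the start site, so the element was present in 2 of 7 members and in 3.97% of the 32851 promoter windows searched. Members are counted here by gene, with 9 windows for the 7 genes, and the background by window. The Slc38a2 window held 1 TGACNNNGC match, 27 bases before the start, and none of the other motifs. This element was found in 4 of 7 members (Slc38a2, Slc43a1, Slc7a1, Slc7a6) and in 12.4% of all windows, and CACGTG in 1 of 7 (Slc43a1) and in 7.15% of all windows. No motif overlapped another in these windows, and a match describes letters, not binding. Elements outside the windows, for example in an intron, were not searched for. The lack of a match, as of TGATGNAA for Slc38a2, therefore covers the window alone.

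The wider amino acid pathway was read from 9 further lists, in which a few genes appear more than once. Of 22 tested genes of GCN2 and ATF4 and their targets outside transport, 5 rose and 0 fell in BiTS against isotype with the block (median 0.19, beside -0.005 over all genes, of which 1.81% rose and 1.59% fell). They were Ddit3, the stress transcription factor CHOP (0.51 ± 0.09), the pseudokinase Trib3 (0.50 ± 0.09), the lipoprotein receptor Vldlr (0.60 ± 0.13), Ppp1r15a, which directs dephosphorylation of eIF2α (0.42 ± 0.10), and the mTORC1 inhibitor Ddit4 (0.29 ± 0.08). Without BiTS replicate 2 Trib3 (0.41) and Ppp1r15a (0.22) were not called, and with DESeq2 Vldlr and Ppp1r15a were not. Ddit4 was called in 4 of 14 blocked settings, a count that leaves out spike-in scaling. It was lost without BiTS replicate 1 or 2, isotype replicate 1 or BiTS(mut) replicate 1 or 2 (0.19 to 0.34). With the block and spike-in scaling 0 of all genes were called in BiTS against isotype or in BiTS against BiTS(mut). No call of the 9 lists in these comparisons was therefore kept there. Atf4 itself was at 0.19 ± 0.08 and Asns, the asparagine synthetase, at 0.27 ± 0.10, and neither passed. Against BiTS(mut), Trib3 alone of this list rose in BiTS (0.37 ± 0.09), a call lost without BiTS replicate 2 (0.28) or either BiTS(mut) replicate, with DESeq2 and with no filter on low counts. In BiTS(mut) against isotype 0 of the 22 genes were called with the block, 19 were positive and 3 negative. The median there was 0.10, and in BiTS against BiTS(mut) it was also 0.10. The part of the dendritic cell markers, of which 8 of 19 fell in BiTS against isotype, in the calls of this list was not tested.

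Of 22 tested other amino acid transporters 2 rose in BiTS against isotype and 0 fell (median 0.09). Slc43a2 (LAT4), a relative of Slc43a1, was at 27.5 and 26.3 CPM in BiTS and 22.1 and 17.3 CPM in isotype (0.45 ± 0.13), and was called in 3 of 14 blocked settings. It was lost without BiTS replicate 2 (0.27), isotype replicate 1 (0.48), isotype replicate 4 (0.43) or BiTS(mut) replicate 1 or 2. Slc38a3 (SNAT3) had 2.37 and 1.71 CPM in BiTS, 1.43 and 1.48 CPM in BiTS(mut) and 0.664 and 0.275 CPM in isotype, levels of few reads. Against isotype it was at 2.08 ± 0.52 in BiTS and at 1.59 ± 0.54 in BiTS(mut), the latter not called. BiTS was at 0.49 ± 0.41 against BiTS(mut), also not called. The call against isotype was lost without BiTS replicate 1 or 2 or isotype replicate 4, and DESeq2 gave no adjusted p for this gene. Between the sets 4 of these 22 genes were higher and 5 lower, beside 52.7% of all genes called, with Slc15a4, Slc6a6 and Slc16a10 among the lower.

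Among genes that sense or use amino acids, calls between BiTS and isotype were no more than 2 in a list, beside the 3.4% of all genes called in that comparison. Of 32 tested genes of amino acid sensing by mTORC1, 0 passed in any treatment comparison (edgeR with the block, median -0.01 in BiTS against isotype), and of 17 genes of glutamine, aspartate and branched-chain amino acid use 0 passed (median -0.05). Of 20 aminoacyl-tRNA synthetases Cars, the cysteine enzyme, rose in BiTS against isotype (0.35 ± 0.08), a call lost without BiTS replicate 1 (0.36) or BiTS replicate 2 (0.34). Of 10 genes of arginine and polyamine use Odc1, the first enzyme of polyamine synthesis, fell (-0.33 ± 0.09), and of 13 of one-carbon use Mat2a and Shmt1 fell (-0.35 ± 0.10 and -0.38 ± 0.10). All 3 were lost without BiTS replicate 2, isotype replicate 4 or either BiTS(mut) replicate, with DESeq2 and in the 4 libraries compared alone (Mat2a also with the stricter filter), and Odc1 ran from -0.53 to -0.12 and Mat2a from -0.57 to -0.12 over the blocked settings. Of 15 genes of cystine and glutathione use and NRF2 targets 0 passed against isotype. Of the 7 factors known to drive the transporters 0 passed in any treatment comparison. Between the sets Myc was higher (0.36) and Hif1a (-0.98), Max (-0.33) and Atf4 (-0.24) were lower.

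**Figure D5:**
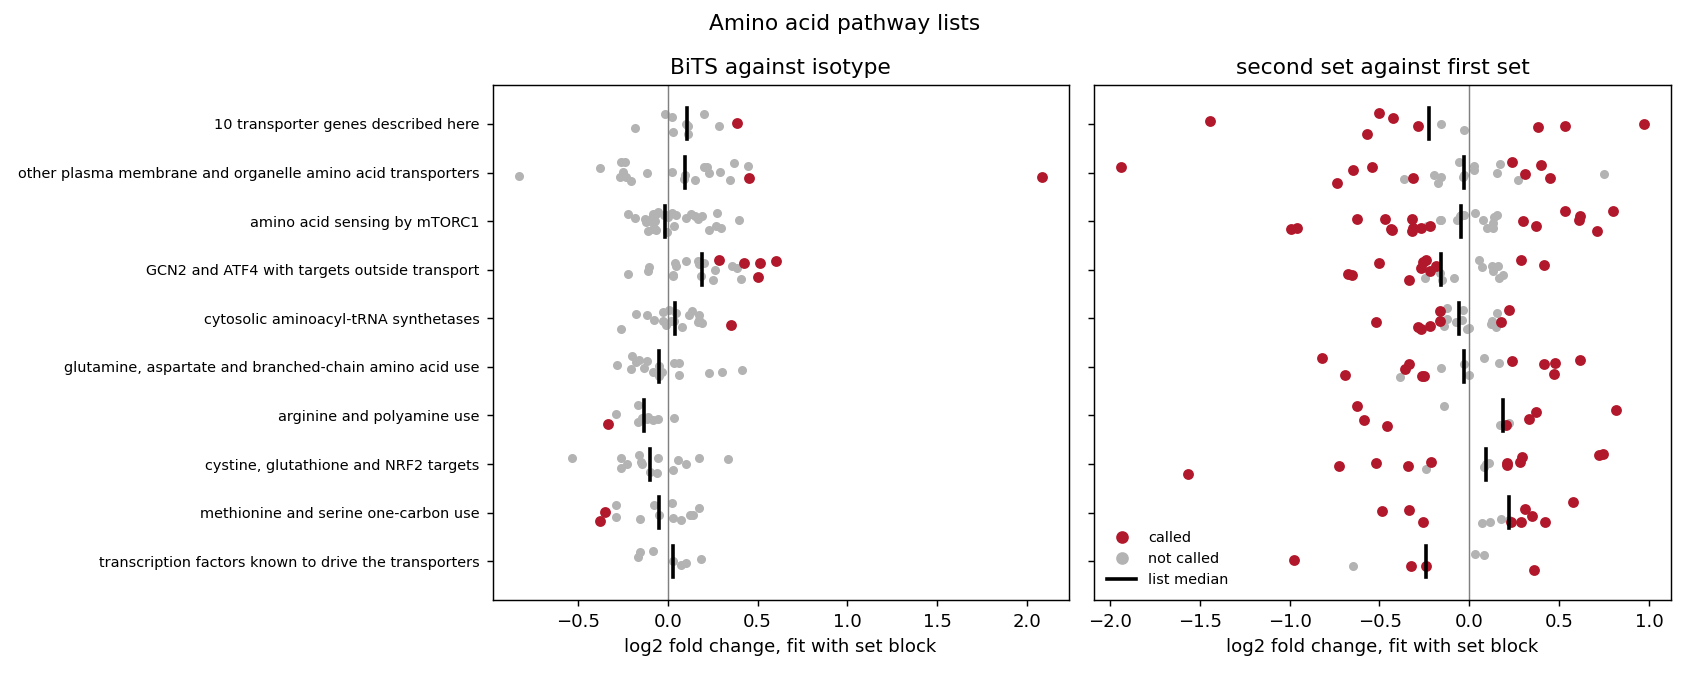
Log2 fold changes of every tested gene of the amino acid lists in the fit with the set block, for BiTS against isotype (left) and the second set against the first (right); red points were called and black bars are list medians. On the left 5 of the 22 points of the ATF4 list are red (list median 0.19), and on the right red points occur in every list on either side of 0.

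By library profile, Slc38a2 was most like Apba3, Cdkal1 and Fas, the death receptor. Their log2 CPM profiles, centred over the 6 libraries, differed from it by a root mean square of 0.03, 0.04 and 0.05, the smallest among 9770 genes. Its nearest fellow member was Slc3a2, in place 244 (0.13). Slc7a5 was most like Fggy, Hspa9, a mitochondrial chaperone, and Isca1 (0.03, 0.03 and 0.04), and its nearest fellow member was Slc38a1, in place 83 (0.08), while its own heavy chain Slc3a2 came in place 5640 (0.25). These places rest on 6 libraries that differ mostly by set, and among 9770 genes some close profiles will always be found. Shared regulation was not tested.

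All members are protein-coding genes in the annotation. On mm10, as the count tables give them, Slc38a2 (ENSMUSG00000022462) lies on chromosome 15 from 96687394 to 96699698 beside Slc38a1 on the same chromosome from 96571418 to 96642913, and Slc7a11 (ENSMUSG00000027737) on chromosome 3 from 49892526 to 50443614, all on the minus strand. Slc7a5 (ENSMUSG00000040010) and Slc7a6 share chromosome 8, from 121881150 to 121907694 and from 106168857 to 106198706, on opposite strands, and Slc3a2 (ENSMUSG00000010095) lies on chromosome 19 from 8706882 to 8723369. Genes that overlap Slc7a5 or Slc7a11 in the tables held at most 1 read over all libraries.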

How the data were processed

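Bulk RNA-seq of 6 libraries (3 treatments, 2 libraries each) was analysed. The authors deposited whole-number read counts for each gene, over the exon intervals that the tables list, per the file headers, and for 92 ERCC spike-in transcripts. The submitters' processing notes name mm10 and DESeq2. Not given in the sources used here: aligner, counter, annotation release, strandedness. Symbols came from GENCODE release M21, which held 49412 of 49671 identifiers (the rest held 0.0133% of counts), and 9 of 10 members had the same start and end there.

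Spike-ins (3.36% to 7.54% of counts) were left out of gene totals. Counts were filtered with filterByExpr, scaled by TMM and entered edgeR 4.0.16 (glmQLFit, glmQLFTest) in R 4.3.3, with all 6 libraries sharing 1 estimate of the spread. Tests were two-sided, p-values were adjusted by Benjamini-Hochberg over 13996 genes, and those under 0.05 are termed called. DESeq2 1.42.0 and limma 3.58.1 served as alternatives. CPM used TMM-scaled totals. TPM used the deposited exon lengths. The scripts were tested on simulated data.

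The design as first written has no block, since the labels state no pairing. The alternative adds the title-number set. Deviations from group means correlated at 0.66, 0.74 and 0.73 within a set, so the pairing rests on the data and not on a stated design. With 2 libraries per group these are the only distinct correlations. The unblocked fit had 3 residual degrees of freedom per gene and 3.14 from all genes, and the blocked fit 2 and 45.95, so a small blocked p rests largely on the spread shared over genes. Other alternatives were RLE or spike-in scaling, library totals, no filter, a CPM of at least 5 in 2 libraries, DESeq2, limma-voom, the 4 libraries compared alone, and leaving out each library.

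Members and lists were chosen with earlier results of these data known. The naming rule takes all members, and from each other list the genes called in either fit or with the smallest p in the blocked fit of BiTS against isotype, some of which are left out. The likest profiles were sought among named genes averaging 5 CPM or more. Slc7a8, Slc15a4, Slc6a6, Slc16a10, Max and Hif1a were named after their values were seen.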

Additional observations from a re-analysis of the deposited data

How the results depend on the processing

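Without the block no alternative called a member in any treatment comparison, and dropping the filter on low counts alone gave calls over all genes (11 in BiTS against isotype, 3 in BiTS against BiTS(mut) and 5 in BiTS(mut) against isotype). With the replicate block, the count of members called in BiTS against isotype was 1 in 12 settings, 4 without isotype replicate 4, 0 without BiTS replicate 2 and 0 with spike-in scaling. In BiTS against BiTS(mut) it was 1 or 0, and 0 with spike-in scaling. Over all genes in BiTS against isotype the block gave 476 calls, 461 with RLE size factors, 411 with library totals, 458 with no filter, 409 with the stricter filter, 155 with DESeq2, 537 with limma-voom, 295 in the 4 libraries compared, 0 with spike-in scaling and 130 to 937 with 1 library left out (345 and 130 without BiTS replicates 1 and 2, 291 and 306 without BiTS(mut) replicates 1 and 2, 937 and 581 without isotype replicates 1 and 4). In BiTS against BiTS(mut) these were 136, 148, 124, 155, 102, 51, 170, 442 and 0, and 25 to 435 with 1 library left out (100 and 65, 25 and 28, 361 and 435, in the same order of libraries). In BiTS(mut) against isotype they were 7, 7, 6, 14, 5, 2, 8, 7 and 1, and 7 to 132 with 1 library left out (12 and 12, 9 and 7, 132 and 15).

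Some differences changed sign, and those listed include values smaller than their SE. With the replicate block and without isotype replicate 1, BiTS against isotype was -0.13 for Slc7a5, -0.15 for Slc7a1 and -0.023 for Slc1a4, and BiTS(mut) against isotype was -0.14 for Slc7a1, -0.015 for Slc1a4 and -0.15 for Slc38a1. Without isotype replicate 4, BiTS(mut) against isotype was 0.23 for Slc7a5, and without BiTS replicate 2, BiTS against BiTS(mut) was 0.21 for Slc1a4. With no block and 1 library left out, BiTS against isotype ran from -1.08 to 0.89 for Slc7a11 and from -0.054 to 0.57 for Slc1a4, and BiTS against BiTS(mut) from -0.29 to 0.30 for Slc7a1, from -1.54 to 0.12 for Slc7a11 and from -0.14 to 0.45 for Slc38a2. In BiTS(mut) against isotype the same settings gave -0.33 to 1.55 for Slc7a11 and -0.07 to 0.59 for Slc38a2. With the block and without isotype replicate 1, Slc7a11 in BiTS against isotype was 0.06. Between the sets, spike-in scaling gave -0.38 for Slc7a6 and -0.23 for Slc1a5. The cause of these changes was not tested. A lone library left in a group is assumed to vary like the others. Slc7a11 in the second set rested on 82 to 160 reads and Slc43a1 on 33 to 87, which limits the precision of their values.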
